A study of Mus musculus with 71 samples.

Results

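This account concerns 10 genes of glycolysis and of its bisphosphoglycerate branch in mouse blood: Bpgm, Pklr, Hk1, Gpi1, Pfkl, Aldoa, Pgk1, Eno1, Ldha and Pkm. The members were taken by gene symbol from a table of 10508 genes normalized by a variance stabilizing transformation (vst), or from a table of raw counts of 55416 genes where the symbol was missing from the first. The vst table held 9 of the 10 members, and Pklr was followed by its counts only.

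Whole blood RNA was sequenced from 71 young female Balb/c AnNRj mice in a model of systemic sclerosis in which hypochlorous acid (HOCl) is injected into the skin. Of these, 11 mice were labelled CTRL, and 12 were labelled HOCl alone. The other 4 groups, of 12 mice each, were labelled HOCl with E07, D11, D06 or BPR21. E07 and D11 are monoclonal antibodies (mAbs) against galectin-3, while the sources used here do not describe D06 and BPR21 further. According to the study's methods, control mice received PBS and E07 and D11 were given by subcutaneous injection at the same dose. The genotype label of the CTRL mice reads HOCL, and they were placed by their titles. Blood was taken at the end of the experiment into tubes that stabilize RNA, and globin transcripts were depleted before sequencing. The groups were kept in separate cages, so that cage and group cannot be told apart. HOCl mouse 8 has counts but was not in the vst table, so the HOCl group comprised 11 mice in tests on vst values and 12 in counts.

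Glycolysis splits glucose into pyruvate in the cytosol and is the source of ATP in mature red cells, which have no mitochondria. In the bisphosphoglycerate branch, the mutase encoded by Bpgm turns 1,3-bisphosphoglycerate into 2,3-bisphosphoglycerate, which binds haemoglobin and lowers its affinity for oxygen. White cells and platelets run the same pathway, in part with other isozymes, so that whole blood holds the transcripts of several cell types at once.

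Levels were first compared between the members as RPKM, counts scaled by the annotated exon length and by the total of the library. Bpgm was by far the most abundant member, with a median RPKM of 1641 over the 71 mice (range 420 to 4622). Its level was above that of Aldoa, the next in order, in 71 of 71 mice. Aldoa, encoding the aldolase that splits fructose 1,6-bisphosphate, had a median RPKM of 59.0.

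After Aldoa, the median RPKM levels were 40.4 for Pgk1, 39.4 for Ldha, 30.9 for Pkm, 29.4 for Gpi1, 12.1 for Eno1, 9.49 for Hk1 and 1.83 for Pfkl. Neighbours in this order often did not differ beyond their spread. Pgk1 exceeded Ldha in 44 of 71 mice, Pkm exceeded Gpi1 in 46, and Eno1 exceeded Hk1 in 51, whereas Gpi1 exceeded Eno1 and Hk1 exceeded Pfkl in 71 of 71. With the length of the Ensembl canonical transcript in place of all annotated exons (chosen after seeing the data), Bpgm and Aldoa remained first and second (median RPKM 2818 and 210), Pkm moved to rank 3 and Pgk1 to rank 7. The middle of the order therefore rests on the length used, while Hk1, Pfkl and Pklr kept ranks 8, 9 and 10 under both lengths.

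**Figure D1:**
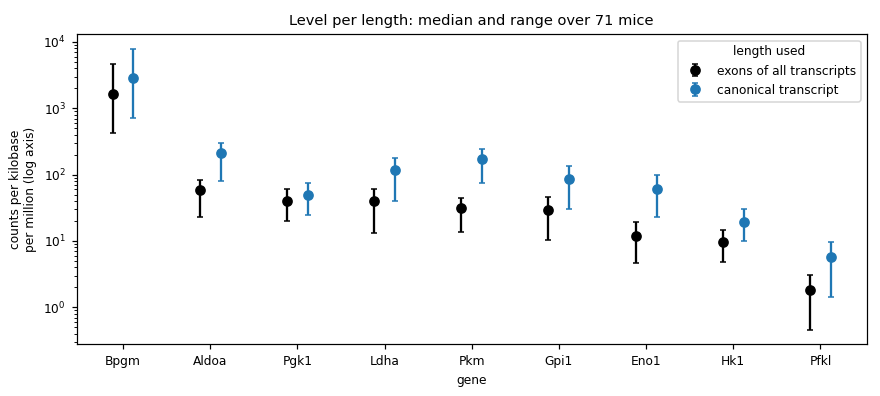
RPKM (log axis) of the 9 members of the vst table, as the median (point) and the range (bar) over 71 mice, with the length of all annotated exons (black) or of the canonical transcript (blue). Bpgm lies at a median of 1641 or 2818, above the other members under both lengths, while the middle of the order changes with the length.

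As a share of all counts of a mouse, Bpgm took 0.267% to 1.40% in control mice and 1.00% to 2.94% in HOCl mice. The mean share of Bpgm was 0.902% ± 0.331 (SD, n = 11) in CTRL, 1.73% ± 0.50 (n = 12) in HOCl, 0.770% ± 0.306 in E07, 1.07% ± 0.45 in D11, 1.27% ± 0.53 in D06 and 1.08% ± 0.32 in BPR21 (n = 12 each). Among the counts of the 10 members together, Bpgm contributed a median of 87.7% (range 55.8% to 97.8%). A sum over these genes is thus mostly a measure of Bpgm, and each member is described on its own below.

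To show what precedes the transcription start of the members that moved and of the pyruvate kinase pair, the 250 bases before the start of the canonical transcript were read from GRCm39 with GENCODE vM39. Bpgm is at chr6:34453142-34484029 (plus strand) and Hk1 at chr10:62104621-62215687 (minus strand), and the Hk1 stretch lies within the annotated gene because other Hk1 transcripts start further upstream. Pklr is at chr3:89043449-89054619 and Pkm at chr9:59563364-59586663 (plus strand), and their stretches lie within the annotated gene for the same reason. Whether the Pklr start used here serves the red cell or the liver form was not determined. Capitals mark CCAAT or its reverse complement ATTGG, the core of the CCAAT box.
Bpgm, chr6:34452892-34453141, plus strand: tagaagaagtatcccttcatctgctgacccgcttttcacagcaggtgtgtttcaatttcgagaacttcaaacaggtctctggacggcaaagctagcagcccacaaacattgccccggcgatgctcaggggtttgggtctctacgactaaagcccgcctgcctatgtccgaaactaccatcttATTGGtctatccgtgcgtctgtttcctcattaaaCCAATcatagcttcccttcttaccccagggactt
Hk1, chr10:62176322-62176571, minus strand: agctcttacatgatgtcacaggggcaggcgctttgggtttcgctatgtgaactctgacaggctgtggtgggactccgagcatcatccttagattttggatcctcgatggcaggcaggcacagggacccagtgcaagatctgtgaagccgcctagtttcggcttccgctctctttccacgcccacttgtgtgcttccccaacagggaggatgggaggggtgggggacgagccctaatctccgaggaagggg
Pklr, chr3:89043629-89043878, plus strand: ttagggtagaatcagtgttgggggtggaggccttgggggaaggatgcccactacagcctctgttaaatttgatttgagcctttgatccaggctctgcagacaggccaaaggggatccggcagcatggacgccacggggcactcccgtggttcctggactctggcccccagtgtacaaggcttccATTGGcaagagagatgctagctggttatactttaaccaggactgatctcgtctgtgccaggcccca
Pkm, chr9:59563385-59563634, plus strand: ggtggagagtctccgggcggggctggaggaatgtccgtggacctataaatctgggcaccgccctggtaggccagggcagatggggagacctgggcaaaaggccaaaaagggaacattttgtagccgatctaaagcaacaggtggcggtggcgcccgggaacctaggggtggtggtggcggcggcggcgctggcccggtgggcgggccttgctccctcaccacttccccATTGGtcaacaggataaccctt

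Counting from -1 at the base before the start, the Bpgm stretch held the CCAAT letters at -68 to -64 and at -34 to -30, Pklr at -66 to -62 and Pkm at -22 to -18. Hk1 had no match. Of the stretches of 10500 genes of the vst table, 36.1% held a match on either strand. The erythroid GATA letters (AGATAA or TGATAA, in 12.4% of the 10500) and the longer CACC letters (CCACACCC, in 3.4%) matched in none of the 10 members. The core of the hypoxia response element (ACGTG, in 20.8%) matched in Ldha, Pgk1 and Aldoa, with 3 separate stretches in Ldha, 2 of them read on both strands as CACGTG. These are matches of letters in 1 window per gene. Where other transcripts start further upstream, as for Hk1, Pklr, Pkm, Aldoa, Ldha and Eno1, the stretches before those starts were not read. The lack of a match in the window read does not speak for those other starts.

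Library totals were 11932855 to 15948972 counts (median 13719277). The size factors (median-of-ratios method, own computation) had group means of 1.29 in CTRL and 1.28 in E07, against 0.936 in HOCl, 0.973 in D11, 0.874 in D06 and 0.985 in BPR21. The vst values are scaled by such factors. With each library scaled to its total count instead, the median over all genes of the log2 fold change went from -0.016 to -0.47 in HOCl against CTRL and from 0.022 to 0.49 in E07 against HOCl. Differences on the vst scale below are therefore relative to the bulk of genes. Markers of erythroid cells, neutrophils, monocytes, B, T and NK cells, platelets and eosinophils were all detected and the 15 erythroid marker genes took 2.48% to 12.8% of the counts.

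The comparison of HOCl with CTRL mice asked which members change with induction of the model. Bpgm rose under both scalings, Hk1 rose with size factors and was level under total-count scaling, and none of the 9 members was called lower on the vst scale. A gene was called when its false discovery rate (FDR, Benjamini-Hochberg over all genes, limma) was at most 0.05 and its fold change at least 1.3. By this rule 2 of 9 members were called, both higher, against 4.96% of all 10508 genes called and 4.79% called higher. The median log2 fold change was 0.13 over the 9 members and -0.016 over all genes.

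Bpgm had vst values of 14.48 to 17.89 (median 16.51) in 11 CTRL mice and of 16.71 to 19.66 (median 18.00) in 11 HOCl mice. All 11 HOCl mice lay above the control median and 6 lay above the highest control, so the groups overlapped. The difference was 1.52 on the log2 scale (95% interval 0.86 to 2.18, standard error 0.32, FDR 0.0061, limma), or 2.86-fold, and ranked 26 by size among the 10508 genes. Under total-count scaling Bpgm was called again, with a log2 fold change of 1.03 (FDR 0.0041), and every fit that left out 1 of the 22 mice called it, with fold changes of 1.32 to 1.66 on the log2 scale. A replicate block for mice that share a number lost the call (FDR 0.0637, limma, 10 pairs of mice), as was that of Hk1 (FDR 0.0509).

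Hk1 encodes hexokinase 1, which phosphorylates glucose as it enters the pathway and is the main hexokinase of red cells. Its vst values were 9.69 to 10.69 (median 10.10) in CTRL and 10.25 to 10.79 (median 10.48) in HOCl mice. The 11 HOCl mice were above the control median and 3 were above the highest control. The difference was 0.43 ± 0.10 (standard error) on the vst scale (FDR 0.0088, limma), but -0.00088 under total-count scaling, where it was not called (FDR 0.996). Relative to the median of all genes it was 0.45 and 0.47 under the respective scalings. The increase of Hk1 is thus an increase relative to most other genes and not in its share of all counts, which was 0.0089% ± 0.0020 (SD, n = 11) in CTRL and 0.0092% ± 0.0024 (n = 12) in HOCl mice.

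For Aldoa the vst values were 11.32 to 12.29 (median 11.89) in CTRL and 11.87 to 12.45 (median 12.21) in HOCl mice, a log2 fold change of 0.34 (FDR 0.0415, limma). This passed the FDR and not the fold threshold, with a fold change of 1.26, and the log2 value was -0.14 under total-count scaling. Pkm encodes the pyruvate kinase of most tissues, which makes pyruvate and ATP in the last step. Its log2 fold change was 0.28 (95% interval 0.07 to 0.49, FDR 0.114, limma), with 11 of 11 HOCl mice above the control median.

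The other 5 members did not pass the FDR. The log2 fold changes were 0.13 for Pgk1, which makes ATP from 1,3-bisphosphoglycerate, 0.09 for Gpi1, the glucose 6-phosphate isomerase, -0.04 for Eno1, the enolase, and -0.07 for Ldha, the lactate dehydrogenase subunit of glycolytic tissues. Pfkl, the liver-type phosphofructokinase, gave -0.20 (95% interval -0.45 to 0.04, FDR 0.397, limma), with 8 of 11 HOCl mice below the control median. Under total-count scaling Pfkl, Eno1 and Ldha were called lower in HOCl mice, with -0.73, -0.53 and -0.55 on the log2 scale, and Gpi1, Pgk1 and Pkm had negative values. That scaling called 52% of all genes in this comparison, 5461 in number, of which 327 were higher. Measured from the median of all genes, each of the 9 members lay on the same side under both scalings in this comparison.

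**Figure D2:**
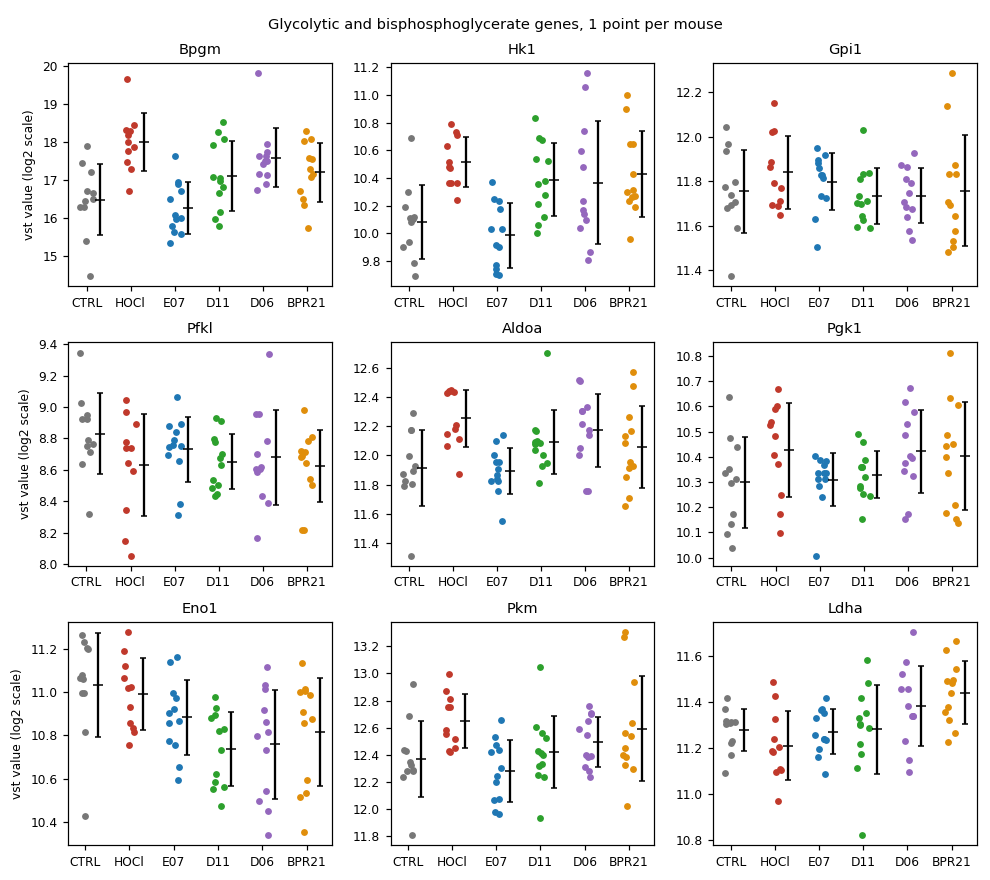
The vst value (log2 scale, vertical axis) of each mouse with a vst value, by group, for the 9 members, with the mean and SD beside the points. Bpgm and Hk1 are higher in HOCl than in CTRL and E07 mice, with overlapping ranges, and the differences of Hk1 are near 0 under total-count scaling. The highest Bpgm values belong to 1 HOCl mouse (19.66) and 1 D06 mouse (19.80).

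The comparison of E07 with HOCl mice asked which members differ under this antibody. Bpgm was lower in E07 mice under both scalings, and Hk1 was lower with size factors, with a value near 0 under total-count scaling. These 2 of 9 members were called, both lower, against 7.89% of all genes called and 7.01% called lower. The median log2 fold change was -0.12 over the 9 members and 0.022 over all genes. The same HOCl mice entered both comparisons, so the opposite signs are not separate observations.

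Bpgm ranged from 15.36 to 17.64 (median 16.04) in the 12 E07 mice on the vst scale, against 16.71 to 19.66 in HOCl mice. All 12 E07 mice lay below the HOCl median and 8 lay below the lowest HOCl mouse. The log2 difference was -1.74 (95% interval -2.28 to -1.20, standard error 0.27, FDR 0.00012, limma), which ranked 13 by size among all genes. Total-count scaling gave -1.23 (FDR 0.00017) and the 23 fits without 1 mouse gave -1.87 to -1.57.

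Hk1 ranged from 9.70 to 10.37 (median 9.97) in E07 mice on the vst scale, and 10 of the 12 lay below the lowest HOCl mouse. Relative to HOCl mice this was -0.53 ± 0.09 (standard error) on the log2 scale (FDR 0.00023, limma). Under total-count scaling the log2 value of Hk1 was -0.09 (FDR 0.619), and relative to the median of all genes it was -0.55 with size factors and -0.58 with total counts.

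Aldoa and Pkm passed the FDR and missed the fold threshold by little. Aldoa had vst values of 11.55 to 12.14 (median 11.88) in E07 mice, with 12 of 12 below the HOCl median, and a log2 fold change of -0.36 (FDR 0.0022, limma). Pkm had values of 11.96 to 12.66 (median 12.27), with 8 of 12 below the lowest HOCl mouse, and a log2 fold change of -0.37 (FDR 0.0057, limma). Their fold changes were 1.28 and 1.29 on the vst scale, and both genes were called by edgeR and by DESeq2 on the counts. Under total-count scaling both log2 values turned positive, at 0.14 for Aldoa and 0.13 for Pkm.

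The remaining members had log2 fold changes of -0.12 for Pgk1, -0.11 for Eno1, -0.04 for Gpi1, 0.06 for Ldha and 0.10 for Pfkl, with FDR values of 0.274 or more (limma). For Pgk1 all 12 E07 mice were nevertheless below the HOCl median. Total-count scaling called Gpi1 (0.46), Pfkl (0.62), Eno1 (0.39) and Ldha (0.57) higher in E07 mice on the log2 scale, which is -0.03, 0.13, -0.10 and 0.07 from the median of all genes. That scaling called 65.5% of all genes in this comparison, 6886 in number, of which 6562 were higher.

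**Figure D3:**
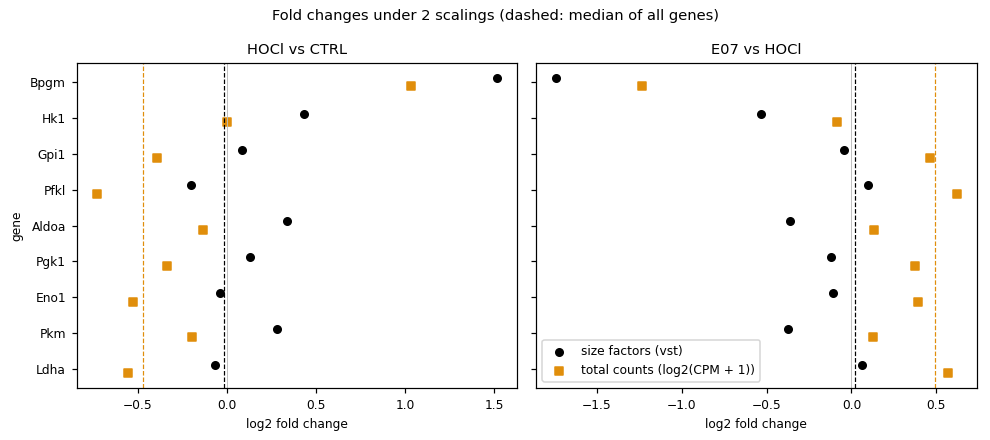
The log2 fold change (horizontal axis) of the 9 members with size factors (black circles) and with total counts (orange squares) in HOCl against CTRL and E07 against HOCl mice, with the median of all genes as a dashed line of the same colour. Bpgm stands away from the median under both scalings, while most other members move with the median line, so their sign depends on the scaling.

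D11, D06 and BPR21 were each compared with the same 11 HOCl mice, and limma called 0 members in each, against 0.0571%, 0.133% and 0.638% of all genes. At an unadjusted p under 0.05 there were 3, 2 and 2 of 9 members, respectively, against 14.1%, 12.7% and 14% of all genes. edgeR and DESeq2 on the counts also called 0 members in these 3 comparisons.

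Bpgm had vst values of 15.78 to 18.52 (median 17.01) in D11, 16.73 to 19.80 (median 17.49) in D06 and 15.74 to 18.29 (median 17.22) in BPR21 mice. Each range overlapped widely with that of HOCl mice. The log2 fold changes against HOCl were -0.89 (95% interval -1.53 to -0.26, FDR 0.206) for D11, -0.41 (-0.99 to 0.17, FDR 0.569) for D06 and -0.80 (-1.39 to -0.21, FDR 0.19) for BPR21 (limma). None passed the FDR over all genes, although the intervals of D11 and BPR21 taken alone lie below 0.

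Hk1 gave log2 fold changes of -0.13, -0.15 and -0.09 for D11, D06 and BPR21 against HOCl, with FDR values of 0.577 or more (limma). Its spread was widest in D06 mice, with vst values of 9.81 to 11.16 and an SD of 0.443 (n = 12) against 0.178 in HOCl mice (n = 11). Eno1 had negative values in all 3 comparisons, at -0.25, -0.23 and -0.17, and with D11 all 12 mice lay below the HOCl median (p = 0.0038, FDR 0.167, limma). Ldha had positive values, at 0.07, 0.17 and 0.23, and with BPR21 all 12 mice lay above the HOCl median (p = 0.0039, FDR 0.13, limma). Neither gene passed the FDR in these fits. Among the alternatives, Eno1 with D11 and Ldha with BPR21 passed the FDR and not the fold threshold, so neither was called.

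Against CTRL mice, limma called 0 members in E07 (0.00952% of all genes called), D11 (0.0761%) and BPR21 (0.504%), and 1 member in D06, where 7.88% of all genes were called and 7.27% called higher. At an unadjusted p under 0.05 there were 0, 2, 4 and 3 of 9 members in E07, D11, BPR21 and D06, against 7.6%, 16.1%, 19.9% and 23.2% of all genes. edgeR and DESeq2 called 0 members in E07, D11 and BPR21 as well. The member called in D06 was Bpgm, higher than in CTRL mice by 1.10 ± 0.31 (standard error) on the log2 scale (FDR 0.021, limma), with 12 of 12 D06 mice above the control median and 2 above the highest control. DESeq2 did not call it (FDR 0.0981), while edgeR (FDR 0.033) and total-count scaling (0.53 on the log2 scale, FDR 0.042) did, as did each of 23 fits that left out 1 mouse (chosen after seeing the data).

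**Figure D4:**
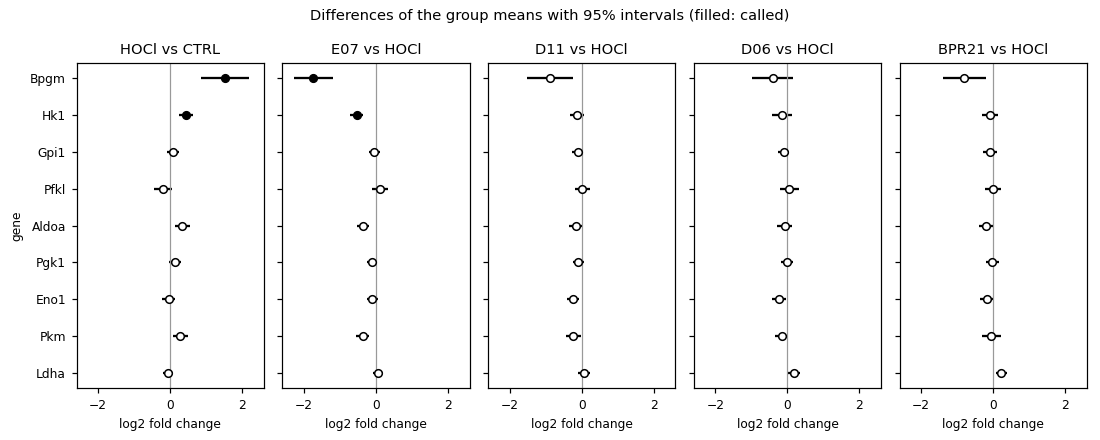
Log2 fold changes (horizontal axis) with 95% intervals of the 9 members, from limma on vst values. Shown are HOCl against CTRL mice and the E07, D11, D06 and BPR21 groups, each against HOCl mice. Filled points were called, namely Bpgm and Hk1 in HOCl against CTRL and in E07 against HOCl mice. Total-count scaling keeps the direction of Bpgm and brings Hk1 close to 0.

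The E07, D11, D06 and BPR21 groups were also compared with each other, in 6 pairs. On the vst scale the calls were 4 of the 54 tests of members, all lower in E07. Of all genes, 4.57% were called in E07 against D11 (4.27% lower), 9.76% against D06 (8.42% lower) and 7.26% against BPR21 (5.69% lower). Bpgm was lower in E07 than in D06 mice (-1.33 ± 0.26, standard error, on the log2 scale, FDR 0.0006, limma), and this held in 24 of 24 fits that left out 1 mouse. Against BPR21 its value was -0.94 (FDR 0.0284), and the call was lost without E07 mouse 4, 8 or 9 or BPR21 mouse 9 or 12 (FDR up to 0.0528). Against D11 the value was -0.85 (standard error 0.29, FDR 0.0775, limma), which did not pass. Counting the main fit and its alternatives, 4 of 11 called Bpgm against D11, as did 4 of 24 fits that left out 1 mouse.

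Hk1 was lower in E07 than in BPR21 mice (-0.44, FDR 0.0175) and than in D11 mice (-0.40, FDR 0.0232, limma). Against D06 it had a value of -0.38 (FDR 0.053, limma). Counting the main fit and its alternatives, 7 of 11 called Hk1 against D06, as did 8 of 24 fits without 1 mouse. The call against D11 was lost without D11 mouse 3, 10 or 12 or E07 mouse 4 or 7, where the fold change went below the threshold and the lowest size was -0.36. It was also lost in 1 fit of 6 groups (FDR 0.0842, limma), which called 0 of all 10508 genes in this pair in place of 480. Under total-count scaling the log2 values of Hk1 were -0.07 against BPR21, -0.05 against D11 and 0.17 against D06, none of them called, while Bpgm stayed negative at -0.51, -0.44 and -0.73. E07 and D11 were given at the same dose, and the doses of D06 and BPR21 are not given in the sources used here. In the 3 pairs among D11, D06 and BPR21, limma, edgeR and DESeq2 called 0 members, with 0 members at an unadjusted p under 0.05 and with 0%, 0% and 0.0571% of all genes called.

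Pklr encodes the pyruvate kinase of red cells and liver. It had 242 counts over the 71 mice, and 32 mice had none, which allows up to 0.189 to 0.251 CPM (counts scaled to the library total) in each of them (3 counts, counting error only). The counts per mouse were 0 to 12 (median 0) in CTRL, 0 to 26 (median 3) in HOCl, 0 to 18 (median 1.5) in E07, 0 to 8 (median 0) in D11, 0 to 10 (median 2.5) in D06 and 0 to 17 (median 0.5) in BPR21. The ranges of all groups overlapped. edgeR on all genes with a count, added because Pklr has no vst values, gave a log2 fold change of 1.57 in HOCl against CTRL (FDR 0.455) and of -1.11 in E07 against HOCl (FDR 0.514). The lowest p of its 15 comparisons was 0.0351, for D11 against HOCl (log2 fold change -2.25, FDR 0.232, edgeR).

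Ratios of 2 genes within a mouse need no scaling of the libraries, and 3 were tested as log2 ratios of raw counts with 0.5 added, in 9 comparisons each (two-sided permutation tests with 100000 resamples, adjusted over 27). Bpgm to Pgk1 sets the bisphosphoglycerate mutase against the kinase that uses the same substrate. In whole blood their transcripts need not come from the same cells, and the part of cell types in this ratio was not tested. This log2 ratio was 4.31 to 7.93 (median 6.37) in CTRL, 6.36 to 9.20 (median 7.88) in HOCl and 5.28 to 7.38 (median 5.87) in E07 mice. It was higher in HOCl than in CTRL by 1.35 (permutation p = 0.00093, adjusted p = 0.0126), with 11 of 12 mice above the control median. It was -1.58 in E07 relative to HOCl (permutation p = 3e-05, adjusted p = 0.00081), with 12 of 12 mice below the HOCl median.

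In the other groups the difference of this log2 ratio from HOCl was -0.76 for D11, -0.38 for D06 and -0.75 for BPR21, with adjusted permutation p of 0.23, 0.486 and 0.164. The difference from CTRL was 0.97 for D06 with an adjusted permutation p of 0.0885. Pklr to Pkm, the red cell against the general pyruvate kinase, had no adjusted permutation p under 0.485, and its log2 ratio rests on the few counts of Pklr. Ldha to Ldhb, the 2 subunits of lactate dehydrogenase, had group means of 3.75 to 3.98 and likewise no adjusted permutation p under 0.485.

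The 15 erythroid marker genes, Alas2 and Slc4a1 among them, were all detected and took 2.48% to 7.57% (median 5.25%) of the counts in CTRL, 5.98% to 12.8% (8.44%) in HOCl, 3.52% to 6.83% (4.81%) in E07, 3.83% to 8.86% (6.20%) in D11, 5.31% to 12.4% (6.64%) in D06 and 4.92% to 8.97% (6.44%) in BPR21 mice. By the same limma fits, 14 of the 15 were called higher in HOCl than in CTRL and 15 were called lower in E07 than in HOCl mice. This share moved with the level of Bpgm. The part of erythroid cells in the differences of Bpgm and Hk1 was not tested, and in whole blood fewer cells of a type and less RNA per cell cannot be told apart.

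For the 70 mice with vst values, the vst value and the log2 of this share were each taken as deviations from the group means. Pearson's r between them was 0.923 for Bpgm (Spearman's rho 0.915) and 0.829 to 0.972 within single groups. It was 0.448 for Hk1 (-0.251 to 0.709 within groups), 0.270 for Pkm (-0.140 to 0.900) and 0.213 for Aldoa (-0.345 to 0.866). For Ldha it was -0.115 (-0.410 to 0.249). These are descriptions over mice that share a sequencing depth scale and their groups. Leaving out the 2 mice whose centred log2 share lay farthest from its median gave 0.924 for Bpgm. Mice were chosen by this deviation and not by the share itself, so those with the largest shares were not necessarily left out. The mice with the highest Bpgm, D06 mouse 5 and HOCl mouse 7, had shares of 12.4% and 12.8% and size factors of 0.414 and 0.464, and CTRL mouse 7 had the lowest Bpgm with a share of 2.64%.

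**Figure D5:**
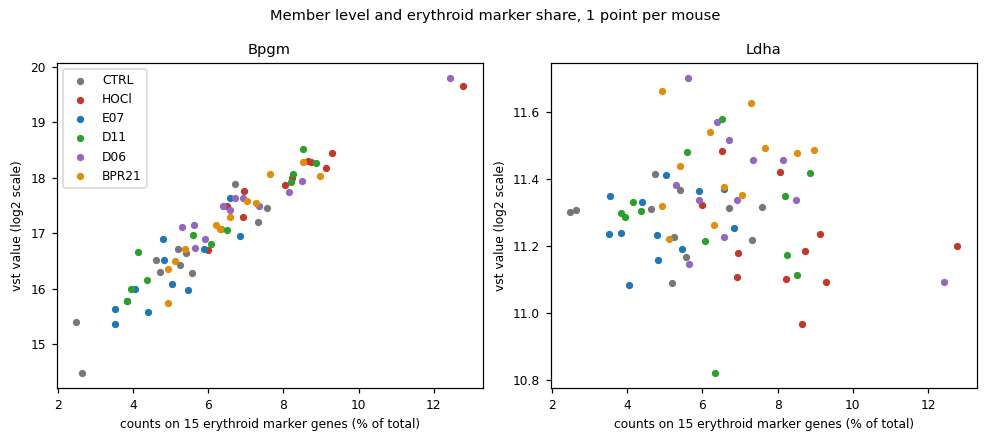
The vst value (log2 scale) of Bpgm and of Ldha against the share of counts on 15 erythroid marker genes, 1 point for each of 70 mice, coloured by group. Bpgm rises with the share across the 6 groups, while Ldha shows no such line. The r of 0.923 for Bpgm and -0.115 for Ldha are for deviations from the group means, with the share as log2. They are not for the points as drawn.

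Markers of other blood cells were read from the same fits. In HOCl against CTRL mice 5 of the 5 tested platelet markers were called higher, against 4.79% of all genes. None of the markers of neutrophils, monocytes, B, T and NK cells and eosinophils was called. In E07 against HOCl mice, 5 of 5 platelet markers and 1 monocyte marker were called lower, against 7.01% of all genes. Called higher were 4 of 5 B cell markers and 2 of 3 eosinophil markers. As a share of all counts, platelet markers took medians of 0.338% in CTRL, 0.400% in HOCl and 0.393% in E07 mice. The monocyte share had medians of 0.0485% in HOCl and 0.0534% in E07 mice, and the B cell share 0.0891% and 0.177%. The lower platelet and monocyte calls are thus relative to the bulk of genes. The part of these cells in the values of Aldoa, Pkm and Hk1, which they can also express, was not tested.

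To describe which genes followed each member from mouse to mouse, r was computed between deviations from the group means over the 70 mice, for every gene of the vst table. Bpgm had the closest followers, with 0.986 for Aldh1a1, 0.981 for Psme3 and 0.973 for Specc1. For Hk1 the 3 highest were Nipal3 (0.807), Pecam1 (0.801) and Nomo1 (0.794). Bpgm and Hk1 themselves, called together in 3 comparisons, had r = 0.481.

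Pkm was followed by Zyx (0.911), Ctsd (0.889) and Chst12 (0.844), and Aldoa by Aldh2 (0.849), Zyx (0.812) and Mast2 (0.806). Between members the highest r was that of Aldoa with Pkm (0.837), followed by Hk1 with Pkm (0.638) and Hk1 with Aldoa (0.569). Lsp1 (0.812) and S100a11 (0.786) were among the nearest genes of Gpi1.

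Eno1 and Pfkl shared a neighbour, Sf3b2, at 0.753 and 0.598. The others were Flna (0.719) and Myh9 (0.715) for Eno1, and Aaas (0.638) and Sptan1 (0.588) for Pfkl. Pgk1 had Gapdh (0.622), the enzyme of the preceding step, with Arpc2 (0.605) and Cstdc5 (0.599). Ldha had the weakest neighbours, Cd3d (0.535), Gramd1a (0.514) and Saraf (0.508), and its r with Bpgm was -0.106. All these values share the library and its size factor.

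Of 44 other genes of glucose transport, glycolysis, the pentose phosphate pathway and pyruvate oxidation, 34 were in the vst table. In HOCl against CTRL mice 2 of the 34 were called, both higher, against 4.96% of all genes called, and 23 had a positive value. They were Taldo1, the transaldolase of the pentose phosphate pathway (log2 fold change 0.74, FDR 0.0043, limma), and Slc2a3, the glucose transporter GLUT3 (0.38, FDR 0.0442, limma). In E07 against HOCl mice 3 of 34 were called lower and none higher, against 7.89% of all genes called. They were Taldo1 (-0.84, FDR 0.00012), G6pdx, the entry enzyme of the pentose phosphate pathway (-0.50, FDR 0.0028), and Slc2a3 (-0.44, FDR 0.0018, limma).

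In D06 against CTRL mice Taldo1 (0.78), Slc2a3 (0.41) and Tpi1, the triose phosphate isomerase (0.51), were called higher on the log2 scale. E07 was lower than D06 mice in Taldo1 (-0.88), Slc2a3 (-0.47) and Tpi1 (-0.40), lower than D11 mice in Taldo1 (-0.60) and Slc2a3 (-0.41), and lower than BPR21 mice in Taldo1 (-0.67). Every other of the 15 comparisons called 0 of the 34 with limma. Under total-count scaling Taldo1 kept its direction in all 6 of these comparisons, for example 0.26 in HOCl against CTRL and -0.33 in E07 against HOCl on the log2 scale. Slc2a3 changed sign in HOCl against CTRL (-0.09), E07 against HOCl (0.05), D06 against CTRL (-0.15) and E07 against D06 (0.11), as did Tpi1 in D06 against CTRL (-0.03) and E07 against D06 (0.17). G6pdx in E07 against HOCl was -0.06.

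Some members have near-identical copies or partners that could share reads. Eno1b had 21962 counts over all mice against 133178 for Eno1, so the split between them is uncertain. For Aldoa, Pgk1 and Ldha the named copies had at most 155 counts each, against 88231 or more for the member. Hk1os, antisense to Hk1, had 5884 counts against 83289 for Hk1, and the strand setting of the counting is not given in the sources used here.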

How the data were processed

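Terminal whole blood of 71 mice was sequenced. According to the study's methods, the authors trimmed reads with Cutadapt, aligned them to mm39 with STAR and counted them with featureCounts. They deposited raw counts of 55416 genes, and values on a log2 scale from the vst function of DESeq2 for 10508 genes and 70 mice, after removing non-coding and low genes. The annotation release is not given in the sources used here.

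Differences in vst values were tested by limma 3.58.1 (R 4.3.3), with the study's thresholds (FDR at most 0.05 over all genes, fold change at least 1.3), each comparison on its own 2 groups, a choice made here. Counts were tested as alternatives with edgeR 4.0.16 (quasi-likelihood, TMM) and DESeq2 1.42.0, on the 10506 vst genes matched by symbol. Aldoa is 1 of 5 symbols on 2 rows of the count table, and the row with more counts was used (the other holds 34). Other alternatives were the FDR alone, a minimum of 10 counts in 11 mice or none, 1 fit of 6 groups, limma with trend and robust variances, median centring, log2(CPM + 1) of total counts, leaving out mice 1 at a time and a block for the mouse number. Ratios were tested in Python 3.11.15 with numpy 2.4.6. Gene lengths, which the count table does not hold, came from GENCODE vM39. Simulated data with 200 of 10506 genes changed, patterned on HOCl against CTRL, were tested first. The changes were of 1 on the log2 scale, up or down, and only in genes with higher counts. Of these, limma and edgeR each found 91% and DESeq2 91.5%, with 5, 4 and 11 false calls. Smaller changes, such as those of most members, were not covered.

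The members and lists were chosen with earlier results of these data known. Named genes were the 10 members, up to 4 called pathway genes per comparison, and the 3 genes nearest to each member (1 of them is not reported here), while the sequence of Hk1 was added after its values were seen. No 2 libraries were identical. Nothing in the labels says whether the mice came from separate litters or batches. Intervals cover the spread between mice only, and with 11932855 to 15948972 counts per library, genes as low as Pklr are measured with little precision.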

Additional observations from a re-analysis of the deposited data

Results flagged for a closer look

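HOCl mouse 8, which has counts but no vst values among those deposited and so entered none of the limma comparisons of the report, had 14114.6 CPM of Bpgm (counts scaled to the library total), just above the highest control mouse at 14029.5. The same mouse had 450.8 CPM of Aldoa, the highest value of all 71 mice, above the highest control mouse at 422.5. The other members of this mouse lay within the range of the control mice.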

How the results depend on the processing

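Bpgm kept its direction and its call in HOCl against CTRL and in E07 against HOCl mice under every alternative except the replicate block in the former. The number of members called in HOCl against CTRL mice (2 in the report, and 2 in every fit without 1 mouse) was 4 with total-count CPM (52% of all genes called) and 0 with a replicate block for the mouse number, where the FDR of Bpgm was 0.0637 and that of Hk1 0.0509 and 85 genes were called in place of 521. Same-numbered mice are different animals, and the mean r of their deviations was 0.00041 to 0.146 over the 15 comparisons. Between mice of different numbers it was -0.0097 (E07 against CTRL) to 0.0018 (E07 against BPR21). Closest to their own number were 0 to 4 mice of 10 to 12, with 4 of 11 in E07 against CTRL. Whether the number stands for a shared condition is not known. The block changed no other count of members by over 1.5 times. In E07 against HOCl mice the count was 4 with the FDR alone, with edgeR, DESeq2, edgeR at a minimum of 10 counts in 11 mice, edgeR without a filter, and vst values of 71 mice with HOCl mouse 8, and 5 with total-count CPM (65.5% of all genes). It was 2 to 4 in fits without 1 mouse, with 4 without E07 mouse 5, E07 mouse 6 or HOCl mouse 3. In D06 against CTRL mice it was 0 with DESeq2, 7 with total-count CPM (67% of all genes) and 1 without any 1 mouse. Over the pairs among E07, D11, D06 and BPR21 it was 14 with total-count CPM (44.4%, 74.2% and 45.8% of all genes for E07 against D11, D06 and BPR21). Without 1 mouse (added after seeing the data) it was 0 to 2 in E07 against D11, 1 to 2 against D06 and 1 to 2 against BPR21. It was 0 in every fit without 1 HOCl mouse for D11, D06 and BPR21 against HOCl. Reversed log2 fold changes with total-count CPM were Hk1 -0.00088, Gpi1 -0.40, Aldoa -0.14, Pgk1 -0.34 and Pkm -0.20 in HOCl against CTRL, Gpi1 0.46, Aldoa 0.14, Pgk1 0.37, Eno1 0.39 and Pkm 0.13 in E07 against HOCl, Pfkl -0.022 in D06 against HOCl, and Pfkl 0.078, Pgk1 0.056 and Pkm 0.026 in BPR21 against HOCl. That alternative moves the median of all genes, and the part of this in the reversals was not tested. None of the other reversed values had been called, and the cause was not tested. They were Eno1 in HOCl against CTRL (5.9e-05 edgeR, 0.017 DESeq2, 0.012 with 71 mice), Pfkl in D11 against HOCl (-0.084 edgeR, -0.087 DESeq2, -0.095 with the minimum, -0.089 without a filter, -0.0021 block), Pfkl in D06 against HOCl (-0.022, -0.017, -0.035 and -0.044 in the same order), Pgk1 in D06 against HOCl (0.0015 median centred, 0.018 block) and Pfkl in BPR21 against HOCl (0.032 block). The ratio of Ldha to Ldhb turned to -0.0060 in E07 against HOCl without HOCl mouse 8, and to -0.00038 in HOCl against CTRL as a difference of vst values.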
